A study of Mus musculus with 4 samples.

Results

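The clustered protocadherins were taken as every protein-coding mouse gene whose symbol starts with Pcdha, Pcdhb or Pcdhg on chromosome 18 of the GRCm38 genome build (GENCODE M21 annotation). This rule found 57 of 21938 protein-coding genes. They comprised 12 alternate alpha genes, 22 beta genes, 12 gamma A genes, 6 gamma B genes and 5 C-type genes (Pcdhac1, Pcdhac2, Pcdhgc3, Pcdhgc4 and Pcdhgc5). All lie on the plus strand within 912 kb, at chr18:36930184-37841873. The annotation gives the symbol Pcdha11 to 2 of the alpha genes, ENSMUSG00000007440 and ENSMUSG00000102206, and both were counted.

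Clustered protocadherins are cell-surface adhesion proteins that bind the same isoform on a neighbouring membrane, which lets a neuron tell its own branches from those of other cells. Each alpha and gamma gene has its own promoter and variable exon, which is spliced to constant exons shared by its cluster, whereas each beta gene is a single exon without shared constant exons. In most neurons the alternate promoters are known to be chosen at random, a few per cell, through promoter contacts with distal enhancers that involve CTCF and cohesin, while C-type isoforms are expressed more uniformly. Serotonergic neurons are known for a departure from this rule.

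Accessible chromatin was measured by single-nucleus ATAC-seq, in which a transposase cuts open DNA, in GFP-positive nuclei sorted from brains of Dlx6aCre;Sun1/sfGFP mice at postnatal day 30. In this genotype Cre driven by Dlx6a regulatory sequence, active in the GABAergic lineage of the forebrain, switches on a GFP-tagged nuclear envelope protein, and cortex and hippocampus libraries carried the same alleles. There were 2 libraries from cortex (2355 and 4191 nuclei) and 2 from hippocampus (5576 and 3184 nuclei). The labels do not say whether they came from separate animals, so the spread that the p-values below measure may be technical. Between cortex and hippocampus it is the spread between libraries. Between groups of nuclei, fitted with library as a block, it is the spread of the differences within libraries.

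The libraries differed in depth, with 117290059 and 32005984 cut sites in peaks in cortex replicates 1 and 2 and 72384520 and 47934269 in hippocampus replicates 1 and 2. Where 4 values are listed below, they follow this sequence of libraries. Median cut sites per nucleus ranged from 7352 in cortex replicate 2 to 47236 in cortex replicate 1, and the peaks, called in each library separately, from 61965 to 157220. Pairs of libraries shared 11 to 47 barcodes, at most 1.12% of the smaller library. The GABA-like gate held 45.7% to 69.0% of the nuclei of a library. It needed at least 3 GABAergic markers cut and a GABAergic score at least as high as the oligodendrocyte score, both relative to the library. Its size is thus a relative measure that also depends on depth, and nuclei outside it need not lack GABAergic accessibility. The oligodendrocyte-lineage-like gate, with a 4-fold lead of the oligodendrocyte markers, held 0.215% to 10.4% of nuclei. The lowest share was in cortex replicate 2, where 4 of the 12 oligodendrocyte markers had a peak, against 11 or 12 in the other libraries. A change in the number of nuclei of a type and a change of accessibility within each nucleus cannot be told apart in values summed over a whole library.

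A peak within 1 kb of the gene start was found in every library at 5 of the 57 clustered protocadherins, and these were the 5 C-type genes. Over all protein-coding genes, 12124 of 21938 starts (55.3%) had a peak in every library. No alternate alpha start (0 of 12), no beta start (0 of 22) and no gamma B start (0 of 6) had a peak in any library. The same 5 C-type starts lay inside a peak in every library, and at the other 52 starts none did in every library.

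Among gamma A genes, 2 of 12 starts had a peak in some library. The peak at Pcdhga3 was 401 bp long, held 277 cut sites and was called in cortex replicate 1 only. At Pcdhga12 a peak of 136 bp held 57 cut sites in cortex replicate 1 and a peak of 277 bp held 130 cut sites in hippocampus replicate 1. Both genes had a peak in cortex replicate 1, the deepest library, and neither had one in cortex replicate 2 or hippocampus replicate 2. A start without a peak has no count in the files, so its accessibility below the level at which peaks were called was not measured, and the 5th percentile of cut sites per peak was 39, 26, 18 and 20.

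The 12 non-clustered protocadherins, single genes of the same family elsewhere in the genome, all had a peak at the start in every library. Of 39 Hox genes, a group of homeobox genes arranged in clusters and mostly silent in the forebrain, 0 had one in every library. Among 17 regulators of protocadherin promoter choice, such as Ctcf and the cohesin subunits, 15 had one, as did 16 of 17 genes for binding partners and signalling effectors of the proteins.

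The alternate starts without a peak were also far from the nearest one. For alternate alpha starts the distance to the closest peak was 69.3 to 144 kb, and for beta starts 46.3 to 208 kb, over all libraries. Gamma A starts lay 2.50 to 75.4 kb and gamma B starts 5.69 to 75.8 kb from a peak. The widest stretch of the locus with no peak in any library, chr18:37218647-37643847, spanned 425 kb, held all 22 beta starts and ranked 2 of 15920 such gaps on the chromosome. The stretch at chr18:36803267-37089481, 286 kb long, held the 12 alternate alpha starts and ranked 8. A further stretch of 87.2 kb, ranked 106, held 14 of the gamma A and gamma B starts.

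Similar sequences within a family can keep short reads from being placed. Of all 32-base words within 1 kb of each start, the median share found only once in the genome was 100% for C-type genes, 99.6% for beta genes, 97.7% for gamma A genes, 89.3% for gamma B genes and 88.6% for alternate alpha genes. The lowest value was 73.7%, in an alpha gene. Median CpG counts were 71 around C-type starts and 45.5 around the other 52, and median GC content was 51.4% and 42.5%. The part of mappability and base composition in the missing peaks was not tested.

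The peaks of the locus were unevenly spread between its clusters. Outside the windows at gene starts, 0 peaks lay among the alternate alpha genes, among the beta genes, or in the 100 kb before the alpha cluster in any library. From Pcdhac1 to the end of the alpha constant exons there were 10, 4, 7 and 6 peaks, or 10.6, 4.23, 7.40 and 6.34 per 100 kb. The whole chromosome had 5.30, 2.31, 6.12 and 3.93 per 100 kb, so this interval was denser than the chromosome in each library.

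The 77.3 kb between the alpha and beta genes held 2 peaks in each library. A single region there, chr18:37216906-37218646, had a peak in all 4 libraries. It lies 30.1 kb after the alpha constant exons, in an intron of the long annotated read-through models Gm37013, Gm37388 and Gm42416 and of no other gene. At 46.1, 62.1, 43.6 and 57.6 CPM (cut sites scaled to a library total of 1000000), it was the highest region of the locus in 3 libraries and stood next after the Pcdhgc4 region in cortex replicate 1.

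The 137 kb between the beta and gamma genes held 2, 1, 1 and 2 peaks, and the region found in every library, chr18:37643848-37644699, holds the start of Taf7, a subunit of the general transcription factor TFIID. Among the gamma A and gamma B variable exons 4, 0, 3 and 4 peaks that held a cut site lay outside the start windows, and cortex replicate 2 had 1 more peak there, with 0 cut sites. The interval from Pcdhgc3 to the last gamma constant exon was the densest, with 5, 5, 6 and 5 peaks in 36.5 kb, or 16.4, 16.4, 19.7 and 16.4 per 100 kb. In the 100 kb after the gamma genes there were 12, 8, 13 and 10.

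Levels at the 5 C-type starts ranged from 50.4 to 121 CPM over genes and libraries. CPM values, normalised between libraries by TMM (trimmed mean of M values), were 50.4, 51.3, 51.8 and 52.7 at Pcdhac1 (ENSMUSG00000103255), with a mean of 51.5 ± 0.966 (SD, n = 4). At Pcdhac2 (ENSMUSG00000102697), the second alpha C-type gene, they were 98.7, 83.0, 109 and 103. Pcdhac1 had the smallest SD of the 5 starts.

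At Pcdhgc3 (ENSMUSG00000102918), whose window also overlaps the antisense gene BC037039, the values were 87.3, 60.3, 69.0 and 77.2. Pcdhgc4 (ENSMUSG00000023036), an isoform known to be needed for the survival of cortical interneurons, had 113, 73.1, 121 and 115. Pcdhgc5 (ENSMUSG00000102543) had 66.0, 58.2, 67.3 and 61.1. Cortex replicate 2, the shallowest library, had the lowest value at Pcdhac2, Pcdhgc3, Pcdhgc4 and Pcdhgc5. Its summed peaks were also the shortest of any library there, at 1889, 997, 1584 and 1340 bp. At Pcdhgc4 the other libraries had 3775 to 4070 bp. The part of peak length in these low values was not tested.

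Since the peaks were 997 to 4070 bp long, levels were compared between genes per kb of peak, with CPM of the library total. On that scale the means over libraries in CPM per kb were 19.2 ± 8.92 at Pcdhgc3, 17.2 ± 5.78 at Pcdhac1, 15.2 ± 6.17 at Pcdhgc4, 15.1 ± 5.70 at Pcdhac2 and 13.6 ± 6.42 at Pcdhgc5 (SD, n = 4). The scale itself differed between libraries, so the SDs do not give the spread of a difference between genes, and no test was made between genes. Within libraries Pcdhac1 was above Pcdhgc4 and Pcdhac2 above Pcdhgc5 in 4 of 4, whereas Pcdhgc3 was the highest in 3 and stood at 12.9 in cortex replicate 1, below Pcdhac1 at 14.4. Among the 12124 starts with a peak in every library, all 5 stood below the median in each library, from the 3.88th percentile (Pcdhgc5 in hippocampus replicate 2) to the 36.7th (Pcdhgc3 in cortex replicate 2). The centre of the main peak lay downstream of the start in every case, by 201 to 273 bp at Pcdhac1 and by up to 1348 bp at Pcdhac2 and 1332 bp at Pcdhgc4.

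**Figure D1:**
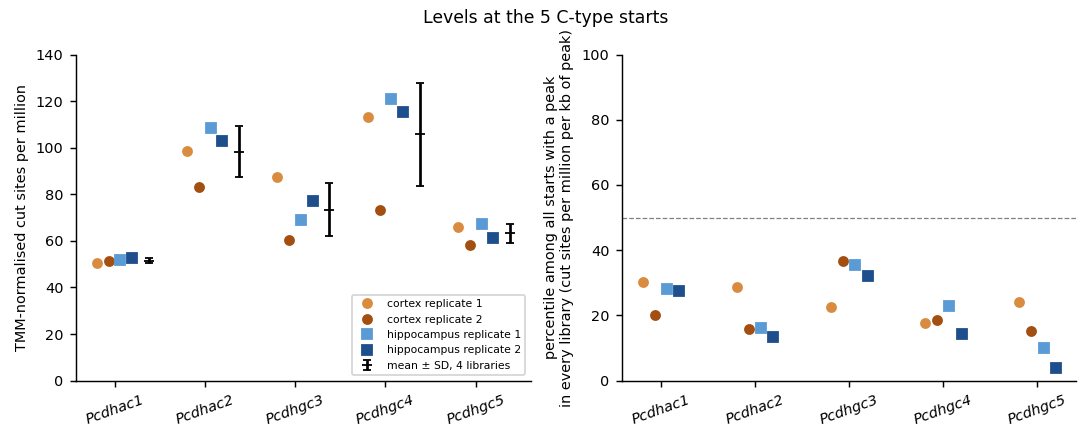
Left, TMM-normalised CPM at the 5 C-type starts, 1 point per library, with the mean ± SD of the 4 libraries. Right, the percentile of each start among the 12124 starts with a peak in every library, by CPM per kb of peak, where the dashed line is the median and all points lie below it.

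The first comparison asked whether the C-type starts differ between cortex and hippocampus. No difference passed the threshold. The log2 differences, hippocampus minus cortex, were 0.34 ± 0.23 (SE) at Pcdhgc4, 0.22 ± 0.15 at Pcdhac2, 0.05 ± 0.16 at Pcdhgc5, 0.04 ± 0.16 at Pcdhac1 and -0.02 ± 0.21 at Pcdhgc3, each with an edgeR adjusted p of 0.9999. The values of the 2 regions overlapped at Pcdhgc3 and Pcdhgc5. At Pcdhac1, Pcdhac2 and Pcdhgc4 both hippocampus libraries were above both cortex libraries, at Pcdhac1 with 51.8 and 52.7 against 50.4 and 51.3 CPM. The share of all starts separated in this way was not counted, so the separation is not read as a difference. With counts scaled to the window, the differences at Pcdhac2 and Pcdhgc4 turned negative. The sizes depended on the cortex libraries: at Pcdhgc4 the difference was 0.69 without cortex replicate 1 and 0.07 without cortex replicate 2, and at Pcdhac2 0.35 and 0.11, none of them past the threshold.

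Over all starts the share called was 0% (0 of 12124, with 202 at an unadjusted p below 0.05 and 6 by DESeq2), so the comparison gave no calls at any gene. In a simulation of this comparison the fit found 21 of 100 starts given a 2-fold change and 93 of 100 given a 4-fold change. Of the 14 regions of the locus with a peak in every library, 0 were called, beside 0% of 46698 regions genome-wide (3803 at an unadjusted p below 0.05, 352 by DESeq2). Of the 15 regulators, 16 partners and 12 non-clustered protocadherins tested, 0 were called, and 0 had an unadjusted p below 0.05.

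Shares of nuclei were compared after every nucleus had been thinned to 5000 cut sites, which left out 0.0849%, 24.5%, 16.0% and 5.59% of nuclei. At least 1 cut site at a clustered protocadherin start was present in 54.7% (exact Clopper-Pearson 95% interval 52.7 to 56.7), 44.5% (42.8 to 46.3), 42.8% (41.3 to 44.2) and 52.5% (50.7 to 54.3) of nuclei. These intervals cover counting error only. The 2 regions overlapped, and the mean share was 1.98 percentage points lower in hippocampus (difference -1.98, exact permutation test over libraries, two-sided, p = 0.667, where 2 against 2 libraries cannot go below 0.3333). Without thinning the shares were 93.1%, 45.6%, 53.5% and 69.8%, with the highest in the deepest library.

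By gene, Pcdhgc4 was cut in 19.8%, 12.1%, 14.9% and 19.6% of nuclei and Pcdhac2 in 16.1%, 13.7%, 12.7% and 17.9%. Pcdhgc3 was cut in 14.4%, 10.8%, 9.01% and 13.4%, Pcdhgc5 in 11.8%, 9.89%, 8.43% and 10.4%, and Pcdhac1 in 9.65%, 9.005%, 6.83% and 10.1%. Pcdhac1 had the lowest share in 4 of 4 libraries. These shares count whole peaks, which were longest at Pcdhgc4 and Pcdhac2.

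The gamma A starts gave far smaller shares. Pcdhga3 was cut in 1.19% of nuclei of cortex replicate 1, and Pcdhga12 in 0.297% of nuclei of cortex replicate 1 and 0.704% of hippocampus replicate 1. For scale, the median start with a peak in every library was expected to be cut in 13.7%, 11.96%, 8.92% and 13.2% of nuclei at the same depth. Pcdhgc4 lay between the 50.5th and 81.2nd percentile of those starts and Pcdhac1 between the 23.7th and 34.4th.

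A nucleus rarely showed several C-type starts at this depth. No C-type start was cut in 45.8%, 55.5%, 57.7% and 47.5% of nuclei, and 2 or more were cut in 14.8%, 9.76%, 8.45% and 15.9%. All 5 were cut in 1 nucleus after thinning. Before thinning they were in 193 nuclei of cortex replicate 1 and in 0, 2 and 5 nuclei of the other libraries, so a nucleus without a cut site at a start cannot be read as one with that start closed.

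**Figure D2:**
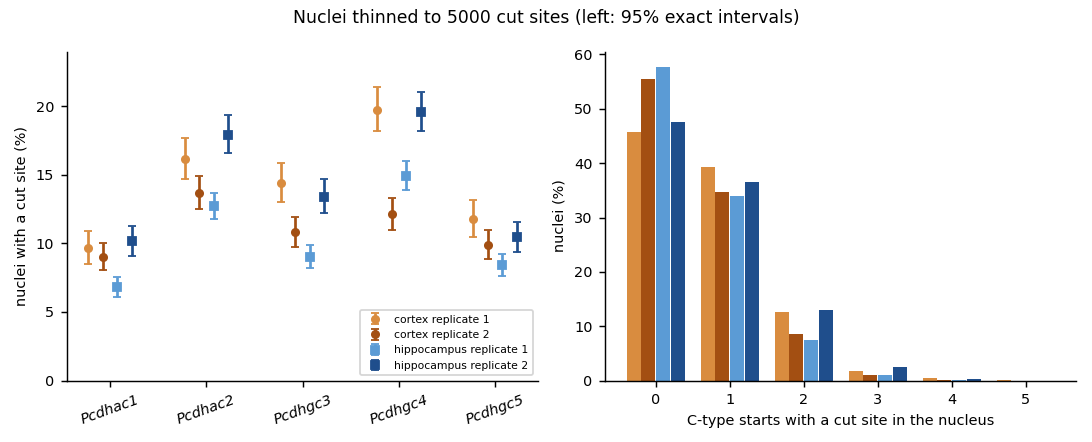
Left, percent of nuclei with at least 1 cut site at each C-type start after thinning to 5000 cut sites, 1 point per library with its 95% exact interval. Right, percent of nuclei by the number of C-type starts cut, in the same colours, where nuclei with none or 1 are the large majority in every library.

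The second comparison set nuclei with the markers of the oligodendrocyte lineage, the myelin-forming glia, against nuclei with GABAergic markers within the same library. In this comparison 4 of the 5 C-type starts were lower in the oligodendrocyte-lineage-like nuclei, by 1.85-fold to 3.05-fold, and Pcdhgc3 did not pass the test. Cortex replicate 2 did not enter, since it had 9 such nuclei, with a peak at 4 of the 12 markers that chose them and at least 3 required. The other libraries had 105, 410 and 331 oligodendrocyte-lineage-like and 1517, 3208 and 2198 GABA-like nuclei, for cortex replicate 1 and then the hippocampus replicates, as for the values that follow.

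Pcdhgc5 had 20.5, 30.9 and 17.7 TMM-normalised CPM in oligodendrocyte-lineage-like nuclei and 67.4, 70.0 and 65.6 in GABA-like nuclei. The log2 difference was -1.61 ± 0.20 (SE, edgeR adjusted p = 5.54e-06). Pcdhgc4 had 41.6, 57.2 and 35.4 against 114, 124 and 124, a log2 difference of -1.47 ± 0.15 (edgeR adjusted p = 6.5e-07). These 2 starts, neighbours in the gamma cluster, fell most.

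Pcdhac2 had 41.6, 65.2 and 40.3 against 95.9, 109 and 103, a log2 difference of -1.11 ± 0.15 (edgeR adjusted p = 1.45e-05). Pcdhac1 had 23.7, 42.3 and 22.7 against 49.9, 51.9 and 54.6, a log2 difference of -0.89 ± 0.22 (edgeR adjusted p = 0.00292). The call at Pcdhac1 was lost without cortex replicate 1 (adjusted p = 0.0503) and without the library block (0.0515). In hippocampus replicate 1 its 2 values were closest.

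Pcdhgc3 had 76.8, 62.9 and 63.6 against 84.7, 66.4 and 78.3, and its log2 difference of -0.18 ± 0.14 did not pass (edgeR adjusted p = 0.329). It was lower in the oligodendrocyte-lineage-like nuclei of all 3 libraries, with log2 differences within libraries of -0.14, -0.08 and -0.30. Whether it differed less than the other C-type starts was not tested. The region of merged peaks at Pcdhgc3 also holds the start of the antisense gene BC037039, and the part of that gene in these values was not tested. Over all 12124 starts, 21.5% were called higher and 21.2% lower in oligodendrocyte-lineage-like nuclei, so a lower call alone was common, and the median log2 difference of all starts was 0.03.

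Shares of nuclei were taken at 2000 cut sites here, which kept 105, 400 and 330 of the oligodendrocyte-lineage-like nuclei, against 105, 157 and 310 at 5000. Any clustered protocadherin start was cut in 15.2%, 12.5% and 13.3% of oligodendrocyte-lineage-like nuclei and in 28.4%, 23.3% and 31.98% of GABA-like nuclei. Pcdhgc5 was cut in 0.952%, 1.25% and 1.52% against 5.21%, 4.18% and 5.33%. At Pcdhgc3 the shares were 5.71%, 3.75% and 5.76% against 6.72%, 4.15% and 6.61%. Thinned to 5000 cut sites they were 20.95%, 6.37% and 12.3% against 13.85%, 8.81% and 13.7%, so the direction at Pcdhgc3 turned in cortex replicate 1.

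The 2 gates also differed in depth, with median cut sites per nucleus of 25782, 4502 and 9481 in oligodendrocyte-lineage-like and 47778, 14280.5 and 16211.5 in GABA-like nuclei, and the part of depth in the levels was not tested. The mean accessibility over the oligodendrocyte markers with a peak (11, 12 and 12 of 12), relative to the whole library, was 10.3, 11.2 and 8.03 in the first gate and 0.379, 0.300 and 0.256 in the second. For the 9 GABAergic markers it was 0.463, 0.320 and 0.270 against 1.06, 1.15 and 1.14. These markers chose the nuclei, and no clustered protocadherin was among them.

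Over all starts, 21.5% were called higher in oligodendrocyte-lineage-like nuclei and 21.2% lower. Among the regulators of protocadherin promoter choice, 6 of 15 were higher and 0 lower, with a median log2 difference of 0.25 beside 0.03 over all starts. They were the cohesin subunits Stag2 (0.53 ± 0.14), Rad21 (0.34 ± 0.13) and Smc1a (0.41 ± 0.15), the cohesin regulator Pds5b (0.40 ± 0.12), and the zinc finger proteins Zfp143 (0.37 ± 0.08) and Wiz (0.37 ± 0.14). At Stag2 the CPM were 104, 72.0 and 105 against 73.2, 50.6 and 70.3. Ctcf was not among those called.

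Of 16 partners and effectors, 4 were higher and 5 lower, with a median of 0.08, beside 21.5% and 21.2% of all starts. The lower ones were Ret, a receptor tyrosine kinase (-1.38 ± 0.24), Celsr3, an atypical cadherin (-0.95 ± 0.13), Marcks, an actin-binding substrate of protein kinase C (-0.93 ± 0.13), and Cyfip2 and Wasf3 of the WAVE actin-regulating complex (-0.70 ± 0.12 and -0.51 ± 0.15). The higher ones were Adam10, the protease that sheds protocadherin ectodomains (0.45 ± 0.11), the focal adhesion kinase gene Ptk2 (0.35 ± 0.14), Wasf1 (0.33 ± 0.10) and Ncam1 (0.30 ± 0.10). Members of the WAVE complex were thus called in both directions.

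Of 12 non-clustered protocadherins, 2 were higher, Pcdh11x (1.39 ± 0.29) and Pcdh17 (0.31 ± 0.09). The 4 lower ones were Pcdh12 (-1.36 ± 0.53), Pcdh18 (-0.96 ± 0.22), Pcdh8 (-0.70 ± 0.14) and Pcdh15 (-0.44 ± 0.14). These counts stand beside 21.5% called higher and 21.2% called lower over all starts. Scaling by total cut sites in place of TMM raised the median of all starts to 0.21 and moved 69.4% of calls to the higher side, from 50.3%. No direction named here turned under it, but the calls at Wasf3, Pcdh12 and Pcdh15 were lost (adjusted p 0.0904, 0.0702 and 0.118).

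**Figure D3:**
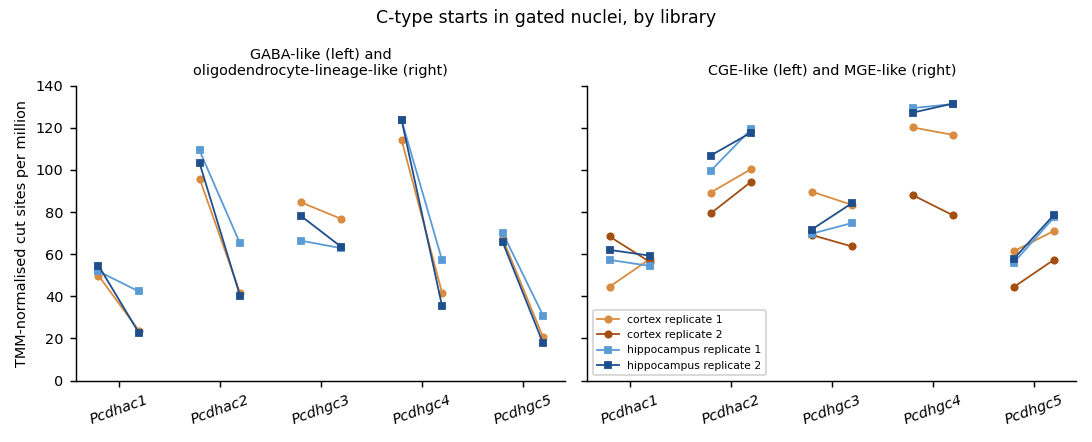
TMM-normalised CPM at the 5 C-type starts, with lines joining 2 gates of the same library. On the left Pcdhac1, Pcdhac2, Pcdhgc4 and Pcdhgc5 fall from GABA-like to oligodendrocyte-lineage-like nuclei in 3 of 3 libraries, and on the right Pcdhgc5 rises from CGE-like to MGE-like nuclei in 4 of 4.

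The third comparison asked whether interneuron classes differ, setting nuclei with the markers of interneurons born in the medial ganglionic eminence (MGE-like, such as those expressing Sst or Pvalb) against nuclei with markers of the caudal eminence (CGE-like, such as those expressing Vip). Of the 5 C-type starts, 1 passed the test: Pcdhgc5 was 1.29-fold higher in MGE-like nuclei. This call was near the threshold and did not hold in several alternatives. The gates held 388, 491, 852 and 572 MGE-like and 336, 277, 637 and 467 CGE-like nuclei.

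Pcdhgc5 had 71.1, 57.5, 77.5 and 78.8 TMM-normalised CPM in MGE-like nuclei and 61.4, 44.4, 56.0 and 57.8 in CGE-like nuclei. It was higher in 4 of 4 libraries, although the ranges of the 2 classes overlapped, and the log2 difference with library as a block was 0.36 ± 0.10 (edgeR adjusted p = 0.0142). Without hippocampus replicate 1 the adjusted p was 0.106 and without hippocampus replicate 2 it was 0.112. It was 0.0512 with DESeq2, 0.194 with a stricter gate and 0.978 without the block. Over all 12122 starts fitted, 4.46% were called higher and 4.33% lower in MGE-like nuclei.

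Pcdhac2 was also higher in 4 of 4 libraries, with 100, 94.3, 119 and 118 against 89.2, 79.3, 99.5 and 107, but its log2 difference of 0.20 ± 0.08 did not pass (edgeR adjusted p = 0.121). The log2 differences at Pcdhgc3 (0.03 ± 0.09), Pcdhac1 (0.02 ± 0.11) and Pcdhgc4 (-0.02 ± 0.07) were smaller than their errors, with edgeR adjusted p of 0.892, 0.938 and 0.927. Shares of nuclei with a cut site at Pcdhgc5, thinned to 5000 cut sites, were 12.1%, 10.5%, 10.4% and 12.1% in MGE-like and 14.6%, 8.43%, 6.84% and 10.99% in CGE-like nuclei. They were thus higher in MGE-like nuclei in 3 of 4 libraries, all but cortex replicate 1. Thinned to 2000 cut sites they were 5.41%, 3.67%, 4.69% and 6.82% against 3.87%, 4.69%, 3.61% and 4.50%. At that depth cortex replicate 2 was the library that went the other way.

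Median depth was 47784, 9691, 14859.5 and 16688.5 cut sites in MGE-like nuclei and 41223.5, 9299, 13509 and 15659 in CGE-like nuclei, a smaller gap than between the gates of the second comparison. The oligodendrocyte marker score was 0.240 to 0.371 in MGE-like and 0.187 to 0.357 in CGE-like nuclei. Among the regulators 0 of 15 were called by edgeR, with 2 at an unadjusted p below 0.05, beside 2580 of all 12122 starts.

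Beside 4.46% of all starts called higher in MGE-like nuclei and 4.33% lower, 1 of the 16 partners was called. Celsr3 was lower in MGE-like nuclei (-0.18 ± 0.05, edgeR adjusted p = 0.0246). Of the 12 non-clustered protocadherins, Pcdh12 (1.28 ± 0.29), Pcdh11x (0.77 ± 0.22) and Pcdh7 (0.18 ± 0.05) were higher and Pcdh10 (-0.20 ± 0.06) lower. Pcdh11x was thus called higher both in MGE-like nuclei and, above, in oligodendrocyte-lineage-like nuclei.

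Across the locus, 14 regions had a peak in every library, 5 of them at the C-type starts. Their differences between classes were taken from a fit over all such regions of the genome, added after the peaks of the locus had been seen. CPM from this fit are TMM-normalised and scaled to the cut sites in those regions. MGE-like and CGE-like nuclei differed in 3 regions in each direction, beside 14.9% of 46645 regions called higher and 13.6% called lower. On the scale of the gene starts, 3 were higher and 2 lower, beside 17.1% and 11.2%. Of the 6, 3 lay close together in the intron between the second and the third alpha constant exon and went in opposite directions. The fourth was the region after the alpha cluster described above.

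In that alpha intron, chr18:37176299-37177319 had 17.9, 17.2, 18.8 and 17.1 CPM in MGE-like and 9.38, 3.41, 13.9 and 8.48 in CGE-like nuclei (log2 difference 0.98 ± 0.23, edgeR adjusted p = 0.0043). The region chr18:37179917-37180777 had 17.3, 18.1, 15.8 and 12.9 against 7.43, 8.10, 11.8 and 7.83 (0.84 ± 0.20, edgeR adjusted p = 0.0049). Between them, chr18:37177879-37179055 went the other way, with 15.9, 13.7, 16.0 and 15.4 against 22.8, 25.2, 27.7 and 20.5 (-0.63 ± 0.15, edgeR adjusted p = 0.0056). The first and the last of these 3 by position on the chromosome were thus the higher ones in MGE-like nuclei. The annotation also places antisense gene Gm10544 over chr18:37176299-37177319 and chr18:37177879-37179055. The start of Gm10544 lies in chr18:37177879-37179055, the region that was lower in MGE-like nuclei.

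The region after the alpha constant exons, chr18:37216906-37218646, had 55.9, 60.2, 58.8 and 66.3 CPM in MGE-like and 66.4, 82.7, 75.3 and 79.4 in CGE-like nuclei. It was lower in MGE-like nuclei in 4 of 4 libraries, with a log2 difference of -0.32 ± 0.07 (edgeR adjusted p = 0.0026). These 4 calls held with DESeq2 and without each library in turn. Enhancers of the alpha cluster are known in the intron before the last constant exon and downstream of that exon, and whether these regions are those elements was not tested.

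The remaining 2 regions were at the gamma end. The region of Pcdhgc5, chr18:37818835-37821830, was higher in MGE-like nuclei (0.31 ± 0.10, edgeR adjusted p = 0.0366), and chr18:37839860-37843399, which covers the last gamma constant exon and its 3′ UTR, was lower (-0.27 ± 0.08, edgeR adjusted p = 0.0213). The Pcdhgc5 region lost its call without hippocampus replicate 1 (adjusted p 0.103) and without hippocampus replicate 2 (0.162). The region of the last exon lost it without cortex replicate 1 (0.057), hippocampus replicate 1 (0.128) or hippocampus replicate 2 (0.171), and on the scale of the gene starts (0.0654).

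Oligodendrocyte-lineage-like nuclei were higher than GABA-like nuclei in 2 of the 14 regions and lower in 6, beside 21.6% and 17.8% of 46685 regions. On the scale of the regions the median of all regions was -0.23, and on the scale of the gene starts it was -0.74, a shift of about the same size at each region. On the latter scale 0 of the 14 regions were higher and 9 lower, beside 9.37% and 39.5% of all regions. The lower regions included those of Pcdhgc5 (-1.09 ± 0.24), Pcdhgc4 (-0.95 ± 0.16) and Pcdhac2 (-0.56 ± 0.18). They also included the region after the alpha constant exons, with 40.7, 33.9 and 40.7 against 50.4, 57.3 and 68.4 CPM (-0.60 ± 0.15, edgeR adjusted p = 0.0084, and 0.053 without hippocampus replicate 1).

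The region of the last gamma exon was lower too (-0.80 ± 0.18), as was the weak region chr18:37800742-37801293 (-1.39 ± 0.51, edgeR adjusted p = 0.0468), whose peak held 0 cut sites in cortex replicate 2. The calls at this weak region and at Pcdhac2 were lost with DESeq2 (adjusted p 0.091 and 0.085). The higher regions were the start of Taf7 (0.96 ± 0.21, edgeR adjusted p = 0.0036) and chr18:37823823-37826602, over the first shared gamma exon (0.75 ± 0.17, edgeR adjusted p = 0.0038). On the scale of the gene starts neither passed, at 0.44 (adjusted p = 0.105) and 0.24 (0.239), and the Pcdhgc3 region turned from 0.32 to -0.19.

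**Figure D4:**
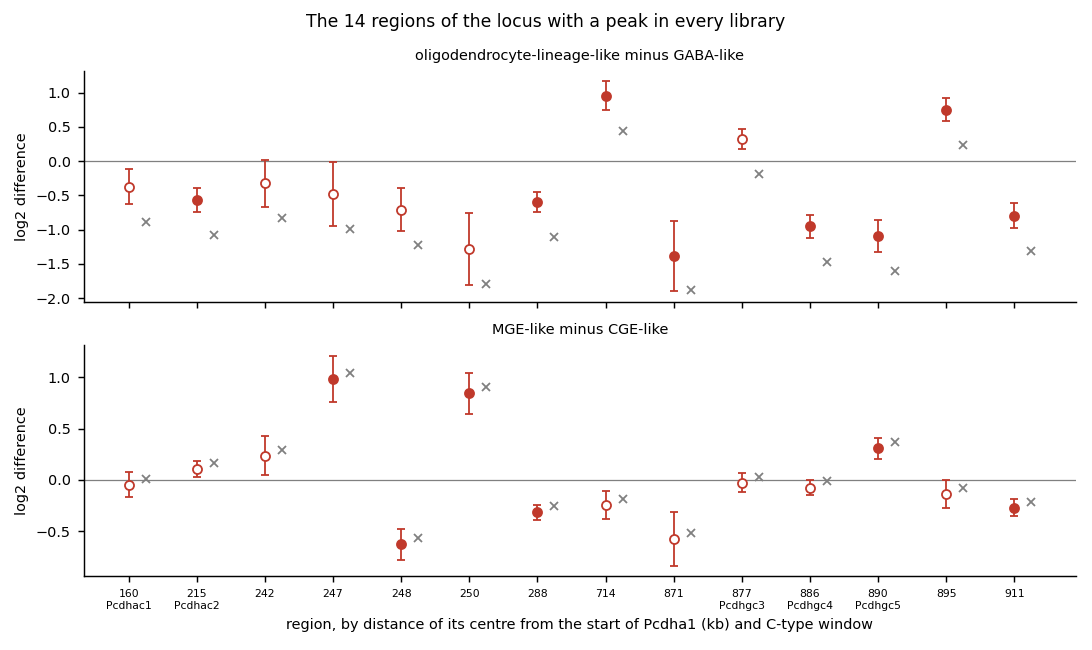
Log2 differences with SE in the 14 regions of the locus that had a peak in every library, in order along the chromosome and labelled by distance from the start of Pcdha1 in kb. Filled points passed an adjusted p of 0.05, open points did not, and crosses give the value on the scale of the gene starts. In the lower panel 3 regions near 250 kb show differences of opposite sign.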

How the data were processed

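Per the labels, single-nucleus ATAC-seq libraries were made with the 10x Genomics kit from 2 cortex and 2 hippocampus samples. The authors deposited, for each library, raw counts of transposase cut sites per peak and nucleus barcode, without normalization, and the submitters' processing notes name Cell Ranger ATAC 1.2.0 and GRCm38/mm10. Peak-calling settings are not given in the sources used here. Deposited motif counts were not used. Since a count exists only inside a library's own peaks, peak length and depth affect every level.

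Counts of all peaks overlapping the 1 kb on either side of each protein-coding gene start (GENCODE M21) were summed over nuclei. Starts with a peak in every library were fitted with edgeR 4.0.16 (quasi-likelihood F test, two-sided, TMM, filterByExpr, prior count 2) in R 4.3.3, with Benjamini-Hochberg adjustment over all starts and a threshold of 0.05. DESeq2 1.42.0 was an alternative. Nuclei were gated by the mean accessibility of marker lists (gene body and 2 kb upstream) relative to the library. Oligodendrocyte-lineage-like nuclei needed a 4-fold lead of that list over the GABAergic list, GABA-like nuclei a GABAergic score at least as high, and MGE-like or CGE-like nuclei a 2-fold lead over each other, with at least 3 markers hit. Gates with under 30 nuclei were not fitted. Library was a block in gated fits, since both gates come from the same library. Regions were built by joining peaks of any library that shared 1 bp or more. Doublets were not called here. Shares used nuclei thinned to a fixed number of cut sites.

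The fits were tested on simulated data with 200 changed starts, and recovered 98 of 100 (oligodendrocyte-lineage-like) and 100 of 100 (MGE-like) at 2-fold. There were 5 and 16 false calls. Each simulation used the same dispersion at every start and no differences between libraries other than depth. It therefore cannot show how the fits do on the real counts or at changes under 2-fold. Members, gene lists and tests were chosen with earlier results of these data known. The genes named were the C-type genes, any member with a peak, list genes past the threshold and those a count of 5 or fewer covers.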

Additional observations from a re-analysis of the deposited data

Results flagged for a closer look

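At Pcdhgc3 the MGE-like minus CGE-like difference went one way in both cortex libraries and the other way in both hippocampus libraries. The log2 differences were -0.11 and -0.12 in cortex and 0.10 and 0.23 in hippocampus, and the regions' means differed by 0.28. The edgeR interaction term was 0.28 ± 0.19 (SE) with an adjusted p of 0.961, so the difference between regions did not pass the test.

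Pcdhgc4 was split in the same way, with log2 differences of -0.04 and -0.17 in cortex and 0.02 and 0.05 in hippocampus, and the regions' means differed by 0.14. Its interaction term was 0.12 ± 0.16 with an edgeR adjusted p of 0.992. Over all 12122 starts, 10 were called for this interaction. Pcdhgc3 and Pcdhgc4 were flagged because of this split in sign. The share of all starts split in the same way was not counted, so neither split is read as a difference between regions.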

How the results depend on the processing

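Called members stayed at 0 in the comparison of hippocampus with cortex under every alternative, including the replicate block (0 calls over all starts), and at 3 or 4 in the comparison of oligodendrocyte-lineage-like with GABA-like nuclei. Between MGE-like and CGE-like nuclei the 1 call became 0 with DESeq2, with counts scaled to the window, with a stricter gate and without the replicate block, and ranged from 0 to 1 without a library. Small log2 differences changed sign between hippocampus and cortex: with total cut sites Pcdhac1 (-0.18) and Pcdhgc5 (-0.18), with counts scaled to the window Pcdhac2 (-0.39), Pcdhgc3 (0.14), Pcdhgc4 (-0.046) and Pcdhgc5 (-0.65), with the replicate block Pcdhgc3 (0.0072), with a crossed pairing chosen after seeing the data Pcdhgc3 (0.0070). Without a library Pcdhgc3 ranged from -0.25 to 0.28 and Pcdhgc5 from -0.033 to 0.14. The same-numbered libraries' deviations correlated at -0.218 over 12124 starts. Between MGE-like and CGE-like nuclei Pcdhac1 reached -0.015 without the block and ranged from -0.12 to 0.095 without a library, Pcdhgc3 from -0.039 to 0.098 and Pcdhgc4 from -0.045 to 0.0052. The causes were not tested. Calls over all starts between hippocampus and cortex were 294 without cortex replicate 1 and 57 without cortex replicate 2. Between oligodendrocyte-lineage-like and GABA-like nuclei they were 1996 without the block, against 5175. Between MGE-like and CGE-like nuclei they were 635 with DESeq2, 612 with the stricter gate, 4 without the block and 483 without cortex replicate 1, 648 without hippocampus replicate 2, against 1066. The share of nuclei with any start cut was 27.6%, 24.02%, 21.4% and 29.3% at 2000 cut sites, 93.1%, 53.5% and 69.8% not thinned (cortex replicate 1 and both hippocampus libraries), and 51.1% (cortex replicate 1) and 41.0% (hippocampus replicate 1) in a 500 bp window. Peaks between the alpha and beta genes were 1 in each library, and between the beta and gamma genes 1 in cortex replicate 1 and hippocampus replicate 2, when only peaks of at least 10 CPM, or merged peaks of every library, were counted. Depth limits which starts have a peak at all.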
